A study of Mus musculus with 88 samples.

Results

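The genes encoding serotonin receptors were followed through 3 stress-related brain regions of male mice after chronic social defeat stress (CSDS). The members were the 10 receptor genes Htr1a, Htr1b, Htr1d, Htr1f, Htr2a, Htr2c, Htr3a, Htr4, Htr5a and Htr7, found by matching the Ensembl identifiers of the region tables to these symbols in the GRCm38 annotation, out of 48811 genes present in any of the tables. Their measured values played no part in the matching. All 10 were tested in the medial prefrontal cortex (mPFC) and the bed nucleus of the stria terminalis (BNST), and 9 in the ventral hippocampus (vHPC), where Htr1d was not analysed here.

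In CSDS a mouse is defeated repeatedly by a larger aggressor, and is then classed as susceptible if it avoids an unfamiliar mouse or as resilient if it behaves like undefeated controls. RNA depleted of ribosomal RNA was sequenced from mice of the inbred strains C57BL/6NCrl (B6, C57BL/6Crl in the labels) and DBA/2NCrl (D2, DBA/2Crl in the labels), aged 8 weeks and dissected 6 to 8 days after the last defeat, in 88 libraries each from 1 region of 1 mouse. For B6, the mPFC came from 6 controls and from 6 resilient and 6 susceptible mice, the BNST from 5 of each, and the vHPC from 6 controls with 8 resilient and 3 susceptible mice. For D2, the mPFC came from 6 controls and 8 susceptible mice, the BNST from 5 controls with 3 resilient and 5 susceptible mice, and the vHPC from 6 controls and 5 susceptible mice. No animal carried a transgene or received a drug, control mice lived with another control mouse without physical contact during CSDS, and all were housed singly afterwards. The mPFC and vHPC do not rest on wholly separate animals, since some mice contributed to both.

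Serotonin is made by neurons of the brainstem raphe nuclei, whose axons reach most of the forebrain, and its action on a target cell depends on which receptors that cell carries. Htr1a, Htr1b, Htr1d and Htr1f, and also Htr5a, encode receptors that couple to inhibitory Gi/o proteins, Htr2a and Htr2c couple to Gq and phospholipase C, Htr4 and Htr7 couple to Gs and raise cyclic AMP, and Htr3a encodes a subunit of a ligand-gated cation channel. Htr1b and Htr1d proteins act largely as autoreceptors and heteroreceptors on axon terminals, Htr1a is found on the soma and dendrites of raphe and forebrain neurons, Htr2a on cortical pyramidal cells, and Htr2c on many neurons and at high level on the choroid plexus epithelium. Chronic stress and antidepressant drugs have long been studied through these receptors.

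The promoters of 3 members that passed the test in the comparisons given further on are shown. The base composition of Htr7 stands apart from that of Htr2a and Htr2c. They are windows from 250 bases before to 50 bases after the start of the RefSeq transcript on assembly GRCm38.p6, read 5′ to 3′ on the strand of the gene. Capitals mark short motifs found by an exact search.
Htr7, chr19:36057311-36057610, minus strand: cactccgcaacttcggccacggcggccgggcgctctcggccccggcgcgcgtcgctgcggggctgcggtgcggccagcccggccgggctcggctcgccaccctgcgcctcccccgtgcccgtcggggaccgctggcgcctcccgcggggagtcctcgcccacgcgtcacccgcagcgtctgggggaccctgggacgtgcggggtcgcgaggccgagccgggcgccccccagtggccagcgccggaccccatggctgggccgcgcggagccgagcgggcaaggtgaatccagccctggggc
Htr2a, chr14:74640624-74640923, plus strand: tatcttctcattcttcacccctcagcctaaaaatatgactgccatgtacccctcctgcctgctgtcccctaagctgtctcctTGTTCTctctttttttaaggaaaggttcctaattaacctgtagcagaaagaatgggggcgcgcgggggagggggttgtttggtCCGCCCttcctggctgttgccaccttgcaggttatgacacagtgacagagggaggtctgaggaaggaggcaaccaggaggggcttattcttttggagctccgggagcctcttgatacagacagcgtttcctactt
Htr2c, chrX:146962263-146962562, plus strand: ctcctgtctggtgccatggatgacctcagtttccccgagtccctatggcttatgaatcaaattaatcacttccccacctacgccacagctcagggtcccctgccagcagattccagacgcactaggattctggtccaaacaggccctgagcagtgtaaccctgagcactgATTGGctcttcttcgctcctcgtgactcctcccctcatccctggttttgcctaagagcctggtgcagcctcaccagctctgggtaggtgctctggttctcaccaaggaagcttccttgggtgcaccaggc
The Htr7 window was the richest in G and C of the 8 member windows that could be matched, at 81.0% with 46 CpG pairs. The Htr2a window held 52.0% G and C with 6 CpG pairs and the Htr2c window 56.3% with 5 CpG pairs, against medians of 53.0% and 7 CpG pairs over 32544 windows of the same length. Searched on both strands were the CCAAT box (CCAAT), the GC box (GGGCGG), the cyclic AMP response element (TGACGTCA), the glucocorticoid receptor hexamer (AGAACA) and the TATA box (TATAAA), which do not overlap in these windows. In Htr2a the capitals are a glucocorticoid receptor hexamer, TGTTCT on the printed strand, and a GC box, CCGCCC on the printed strand, and in Htr2c they are a CCAAT box, ATTGG on the printed strand. No motif searched was found in the Htr7 window. Among all windows 37.4% held a CCAAT box, 35.9% a GC box, 1.8% a cyclic AMP response element, 18.9% a glucocorticoid receptor hexamer and 13.6% a TATA box, so these matches are common letters and describe the window only. The sequence is that of the B6 reference genome and not of D2.

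The BNST table holds whole read counts, with totals per library from 11825757 to 25793910 and a median of 15273698, whereas those of the other regions give log2 CPM, the log2 of a gene's reads scaled to a fixed library size, without counts, so the depth behind those values is not known from them. Library kits differed between regions and the tables were normalized separately, so levels in different regions are set side by side and were not tested against each other. Defining genes of raphe serotonin neurons were near or under detection. Slc6a4, the serotonin transporter, and Fev, the raphe transcription factor, were below the expression filter in all 3 regions, and Tph2, the rate-limiting enzyme of neuronal serotonin synthesis, passed it in the vHPC alone, with a mean of 0.13 log2 CPM in B6 controls. Of the 12 cortical layer markers 11 were present in the mPFC, all 12 hippocampal subfield markers were present in the vHPC, and all 10 septal and preoptic markers were present in the BNST. Presence did not tell the regions apart. All 12 cortical layer markers were also present in the BNST, and 10 of 12 hippocampal subfield markers in both the mPFC and the BNST. Median sums in BNST B6 controls were 151.7 CPM for septal and preoptic, 951.1 CPM for cortical layer and 3516 CPM for striatal neuron markers. In the BNST, D2 control replicates 2 and 5 stood apart from the other D2 controls, with a summed thalamic marker level of 2390 CPM in replicate 5 against at most 858.2 CPM in any other BNST library, 607 CPM in replicate 2 among them. Summed striatal markers were 1605 CPM in replicate 2 and 888.1 CPM in replicate 5, the lowest of all BNST libraries, and 2563 to 4328 CPM in the other D2 controls. Results there were also computed without both.

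The receptors had a different order of abundance in each region. For comparisons between genes, log2 CPM were divided by the length of the merged exons and are given as log2 CPM per kilobase in B6 controls. In the mPFC the leading receptors were Htr1f at 2.87, Htr2a at 2.64, Htr1a at 2.62 and Htr5a at 2.51, which overlapped between mice and together lay above all the others. They were followed by Htr1b at 1.78, Htr2c at 1.36, Htr7 at 1.34 and Htr3a at 1.32, and then at a distance by Htr4 at -0.25 and Htr1d at -1.65, the last being at the edge of detection with a mean of 0.03 log2 CPM. Htr1f was thus at the head of the mPFC order although it was among the lowest in the vHPC.

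In the BNST, Htr1b stood first at 4.27 log2 CPM per kilobase, followed by Htr2c at 3.203 and Htr1d at 3.07, and these 3 overlapped between mice but lay above every other member. Htr1f at 1.796, Htr2a at 1.67, Htr4 at 1.24, Htr5a at 0.91, Htr7 at 0.76 and Htr1a at 0.55 formed a run of overlapping levels, and Htr3a was last at -1.05. The contrast with the mPFC was widest for Htr1d, whose mean over B6 controls was 4.75 ± 0.30 log2 CPM (SD, n = 5) in the BNST and 0.03 ± 0.99 log2 CPM (SD, n = 6) in the mPFC, set side by side across different library kits. Reads of Htr1b may include those of D430036J16Rik, a gene on the opposite strand that shares 852 exon bases with it, and whether counting used the strand is not stated in the sources used here. D430036J16Rik had a mean level of 4.81 log2 CPM in the BNST against 6.31 for Htr1b.

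In the vHPC, 4 receptors of 4 different signalling classes, Gq, Gi/o, Gs and the channel, led at nearly equal levels per kilobase, namely Htr2c at 3.14, Htr1a at 3.13, Htr4 at 3.01 and Htr3a at 2.98 log2 CPM. Htr7 at 2.242 was separate from them and from the next, Htr5a at 1.79, which was in turn separate from Htr2a at 1.38, Htr1f at 1.21 and Htr1b at 0.88. Htr4, the Gs-coupled receptor that was near the foot of the order in the mPFC, had a mean of 5.31 ± 0.14 log2 CPM (SD, n = 6) in the vHPC and 2.04 ± 0.37 log2 CPM (SD, n = 6) in the mPFC of B6 controls. In D2 controls Htr2a led the mPFC at 3.01 log2 CPM per kilobase, Htr1b, Htr2c and Htr1d again led the BNST at 3.65, 2.93 and 2.32, and Htr3a and Htr1a led the vHPC at 3.29 and 3.27. Htr2c spans 146962513 to 147197277 on chromosome X and carries the genes of several microRNAs and 1 small nucleolar RNA in its introns, and its per-kilobase level depends on which of its exons are counted as length. Its merged exons hold 9328 bases and its longest transcript 4883. With the latter its mean in mPFC B6 controls was 2.297 in place of 1.363. The near equality in the vHPC thus holds for merged exons only. In the mPFC of B6 controls the mean of Htr2c stayed below those of the leading receptors with either length. With the longest transcript the gap was narrower, with Htr5a, the lowest of them, at 2.513. In B6 controls the first 3 receptors of each region stayed the first 3 when lengths of the longest transcript were used, while in D2 controls Htr2c came first in both the BNST and the vHPC.

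**Figure D1:**
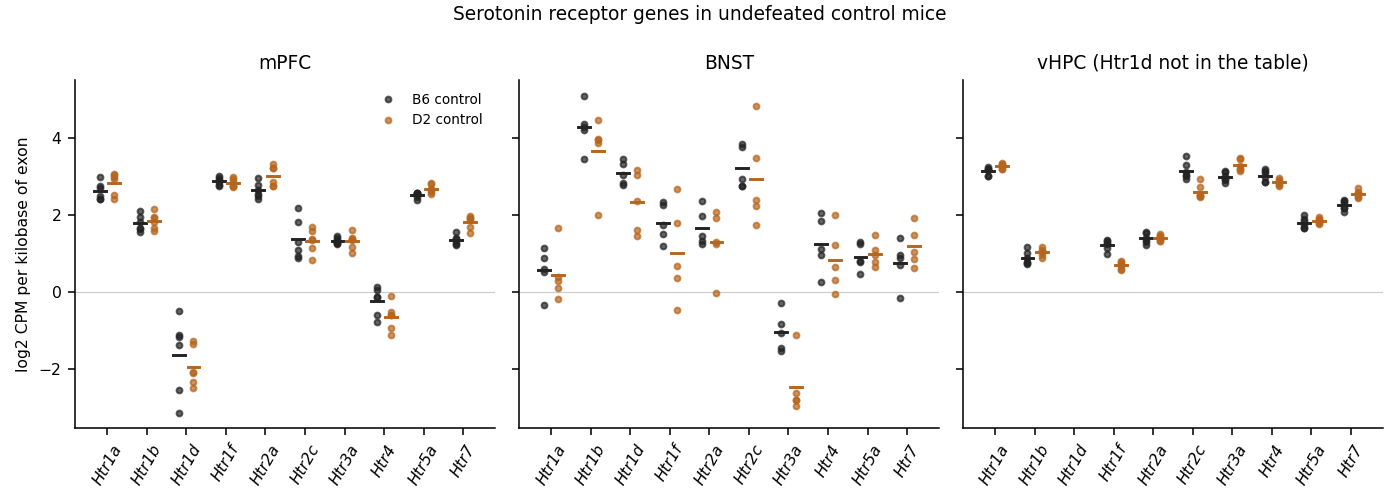
Level of each serotonin receptor gene in control mice of the mPFC, BNST and vHPC (y axis, log2 CPM per kilobase of merged exon), with 1 point per mouse and a bar at the mean, B6 in black and D2 in orange. In the BNST, Htr1b, Htr2c and Htr1d lie highest with B6 means of 4.27, 3.203 and 3.07, while in the vHPC Htr2c, Htr1a, Htr4 and Htr3a share the top between 2.98 and 3.14.

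The spread between mice differed between regions, on values that were not prepared alike. The median SD within groups over the members for mPFC, BNST and vHPC was 0.23, 0.60 and 0.13 log2 units, beside 0.15, 0.42 and 0.14 over all genes. The authors had adjusted the mPFC and vHPC values for batches, while the BNST counts were not adjusted, so these SDs are not like measures. The fits took the adjusted values as given, and their SEs and p values make no allowance for that adjustment. Htr5a was the steadiest member in the mPFC and BNST, with 0.11 and 0.32, and Htr2a in the vHPC, with 0.10. The widest spreads were those of Htr1d in the mPFC at 0.70, Htr3a in the BNST at 0.81 and Htr2c in the vHPC at 0.20. Differences reported below are on the log2 CPM scale, from a model fitted to all genes of the region with 1 mean per group, and p values were adjusted over all genes of the region and counted under 0.05. Lower RNA in a whole region may come from fewer cells of a type or from less RNA per cell, which cannot be told apart in these samples.

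Between the strains, Htr7 and Htr2a were higher in D2 controls than in B6 controls in the mPFC. These were 2 of the 10 members, both higher, beside 27.8% of all genes (13.4% higher and 14.4% lower), so the count itself is close to the background. Htr7, a Gs-coupled receptor, ranged from 2.98 to 3.33 log2 CPM with a median of 3.09 in 6 B6 controls, and from 3.28 to 3.72 with a median of 3.64 in 6 D2 controls. Only the lowest D2 mouse lay within the B6 range, and all 6 D2 mice lay above the B6 mean. The difference was 0.47 ± 0.08 (SE), a 1.38-fold higher level (limma, adjusted p = 6.493e-05). Htr2a, the Gq-coupled receptor of pyramidal cells and a target of psychedelic and antipsychotic drugs, ranged from 4.90 to 5.44 with a median of 5.08 in B6 controls and from 5.221 to 5.802 with a median of 5.511 in D2 controls. The Htr2a ranges overlapped, and the difference was 0.38 ± 0.11 (SE), or 1.297-fold (limma, adjusted p = 0.0118). Htr5a, a Gi/o-coupled receptor, differed by 0.16 ± 0.06 (SE) and missed the threshold (adjusted p = 0.0553), which it passed without D2 control replicate 4 or 6 (adjusted p = 0.0459 and 0.0296).

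The mPFC libraries were prepared in sets, of which 4 held controls of both strains. Within these 4 sets D2 minus B6 was positive in 4 for Htr7, between 0.42 and 0.56, and positive in 3 for Htr2a, between -0.22 and 0.67. With the library set in the model the differences were 0.45 (adjusted p = 0.00053) and 0.40 (adjusted p = 0.0141). Each of the 12 fits that left out 1 control mouse still called both genes. With only the control groups in the fit, Htr7 was called (adjusted p = 0.00207) and Htr2a was not (adjusted p = 0.0542). All 8 oligodendrocyte markers were lower in D2 controls in the same comparison, with summed levels from 1586 to 3050 CPM in B6 controls and from 1061 to 1553 CPM in D2 controls, and their part in the receptor differences was not tested. Reads of D2 mice were aligned to the B6 genome, and the effect of this on any strain difference was not tested.

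No receptor gene passed the threshold for defeat in the mPFC. In susceptible against control B6 mice 0 of 10 members passed (limma, 2.22% of all genes passed), with 3 at an unadjusted p under 0.05. Of all 18946 genes 3441 had an unadjusted p under 0.05. Htr1a, the inhibitory receptor of soma and dendrites, ranged from 4.57 to 5.13 log2 CPM in controls with a median of 4.76 and from 3.99 to 4.96 in susceptible mice with a median of 4.41, an overlap of most of the range. Its difference was -0.38 ± 0.15 (SE, adjusted p = 0.16). The differences of Htr4 and Htr7 were -0.52 (adjusted p = 0.247) and 0.21 (adjusted p = 0.158). In resilient against control B6 mice 0 members passed (0% of all genes) and 0 had an unadjusted p under 0.05, and the same counts, also with 0% of all genes, held for susceptible against control D2 mice. The unadjusted counts over all genes were 731 and 734 in that order.

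The nearest approach to a stress difference in the mPFC was between the defeated B6 groups, where 0 members passed (2.02% of all genes) and 2 had an unadjusted p under 0.05. Over all 18946 genes the unadjusted count was 3719. Htr7 ranged from 2.82 to 3.24 with a median of 2.99 in 6 resilient mice and from 3.153 to 3.473 with a median of 3.314 in 6 susceptible mice. These ranges overlapped slightly, and the difference was 0.29 ± 0.08 (SE, adjusted p = 0.0557). Htr7 passed the threshold when 1 susceptible mouse, replicate 1, was left out (0.31, adjusted p = 0.0436). Htr4 ranged from 1.94 to 2.43 in resilient and from 0.66 to 1.97 in susceptible mice, medians 2.27 and 1.56, with a difference of -0.71 ± 0.24 (SE, adjusted p = 0.104). The strain by susceptibility interaction, which asks whether defeat moved a gene differently in D2 than in B6 mice, passed for 0 of 10 members (0% of all genes), with 2 at an unadjusted p under 0.05, Htr4 at 0.70 and Htr7 at -0.24. Among all genes 1766 had an unadjusted p under 0.05 for the interaction. Susceptible D2 mice had Htr7 levels from 3.34 to 3.78 with a median of 3.56, beside a D2 control median of 3.64.

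**Figure D2:**
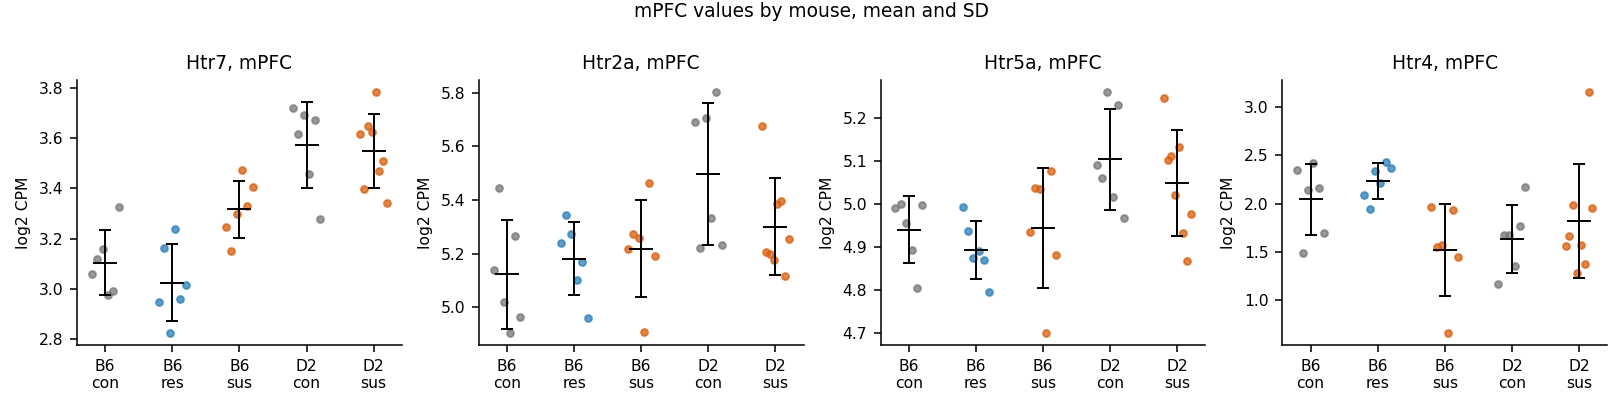
Level of Htr7, Htr2a, Htr5a and Htr4 in the mPFC (y axes, log2 CPM, different ranges), with 1 point per mouse and the mean and SD of each group of control (con), resilient (res) and susceptible (sus) mice. Htr7 and Htr2a lie higher in D2 controls (medians 3.64 and 5.51) than in B6 controls (3.09 and 5.08), and no stressed group differed from its controls past the threshold.

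In the vHPC susceptible B6 mice had more Htr1a, Htr7 and Htr5a RNA and less Htr2c and Htr1f RNA than control B6 mice. These were 3 members higher and 2 lower of the 9 tested, where 40.6% of all genes passed, 20.5% higher and 20.1% lower, so the share of members is near the background and nothing is read from it. Only 3 susceptible B6 mice were measured. Htr1a, the inhibitory receptor abundant on hippocampal pyramidal cells, ranged from 5.16 to 5.41 log2 CPM with a median of 5.33 in 6 controls and was 5.55, 5.59 and 5.64 in the susceptible mice. The groups did not overlap, and the difference was 0.30 ± 0.08 (SE), 1.23-fold (limma, adjusted p = 0.00304). Htr7 ranged from 3.833 to 4.138 with a median of 4.001 in controls and was 4.296, 4.152 and 4.36 in susceptible mice, again without overlap, a difference of 0.26 ± 0.09 (SE, adjusted p = 0.0213). Htr5a ranged from 4.088 to 4.414 with a mean of 4.219 in controls and was 4.455, 4.349 and 4.467, so that 1 susceptible mouse lay within the control range. The difference was 0.20 ± 0.07 (SE, adjusted p = 0.0238).

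The lowered members were Htr2c and Htr1f. Htr2c, a Gq-coupled receptor, ranged from 6.15 to 6.75 log2 CPM with a median of 6.28 in controls and was 5.96, 6.04 and 5.87 in susceptible B6 mice. There was no overlap, and Htr2c fell by 0.41 on the log2 scale (SE 0.13, adjusted p = 0.0172), a 1.33-fold lower level. Htr1f, a Gi/o-coupled receptor targeted by some migraine drugs, ranged from 2.33 to 2.71 with a median of 2.62 in controls and was 2.48, 2.01 and 2.26. The ranges overlapped in 1 mouse, and the difference was -0.33 ± 0.11 (SE, adjusted p = 0.0200). Htr4 differed by -0.16 ± 0.07 (SE, adjusted p = 0.0829, but 0.0377 and 0.0432 without control replicate 3 or 6), Htr1b by 0.17, Htr3a by 0.08 and Htr2a by 0.01, and none of these passed.

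In resilient against control B6 mice 0 of 9 members were higher (limma, 4.94% of all genes) and 0 lower (5.9% of all genes), and 2 had an unadjusted p under 0.05, Htr2c at -0.29 (adjusted p = 0.0725, but 0.0237 and 0.0471 without resilient replicate 4 or 7) and Htr1f at -0.20 (adjusted p = 0.142). Of all 19559 genes 4739 had an unadjusted p under 0.05. Susceptible against resilient mice gave 2 members higher and 0 lower, beside 27.6% of all genes, 14.1% higher and 13.6% lower. Htr1a ranged from 5.08 to 5.497 with a median of 5.29 in 8 resilient mice, all below the susceptible mice. The difference was 0.28 ± 0.07 (SE, adjusted p = 0.00963). Htr5a ranged from 4.05 to 4.33 with a median of 4.16 in resilient mice, also without overlap. The difference was 0.25 ± 0.07 (SE, adjusted p = 0.0118). Both comparisons of the susceptible mice use the same 3 animals and are not independent. Median levels of Htr2c were 6.28 in control, 6.06 in resilient and 5.96 in susceptible B6 mice, and neighbouring groups overlapped.

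In D2 mice 0 of 9 members passed for susceptible against control (limma, 4.28% of all genes) and 3 had an unadjusted p under 0.05. Over all 19559 genes the unadjusted count was 3444. Htr1a was 5.46, 5.64, 5.65, 5.46 and 5.69 in the 5 susceptible D2 mice and ranged from 5.34 to 5.51 in 6 controls, a difference of 0.15 (adjusted p = 0.216). Htr2c was 5.61, 5.54, 5.45, 5.65 and 5.54 and ranged from 5.68 to 6.16 in controls, so the groups did not overlap, with a difference of -0.26 (adjusted p = 0.233). Htr1f was 2.058, 1.637, 2.009, 1.698 and 1.729 and ranged from 1.933 to 2.175 in controls, a difference of -0.23 (adjusted p = 0.203). The interaction passed for 0 of 9 members (limma, 0.782% of all genes) and 0 had an unadjusted p under 0.05, beside 3600 of all genes, so the effects of defeat on the members were not shown to differ between strains.

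**Figure D3:**
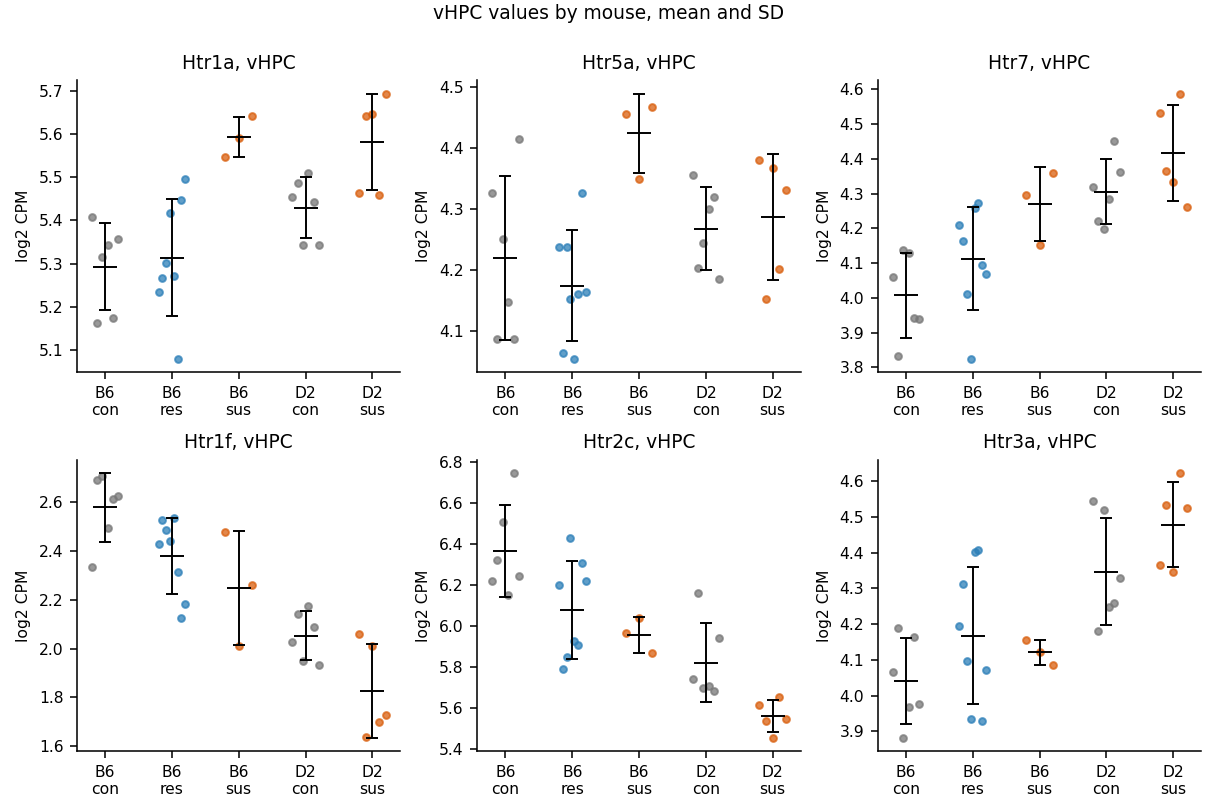
Level of Htr1a, Htr5a, Htr7, Htr1f, Htr2c and Htr3a in the vHPC (y axes, log2 CPM, different ranges), with 1 point per mouse and the mean and SD of each group. Htr1a lies at 5.55 to 5.64 in the 3 susceptible B6 mice, above every control and resilient B6 mouse, and Htr2c lies lower in them (5.87 to 6.04) than in the controls (6.15 to 6.75).

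The strains also differed in the vHPC, where 2 members were higher and 3 lower in D2 than in B6 controls, beside 59.3% of all genes, 30.2% higher and 29.1% lower, so the count of members is near the background. Controls of the strains shared no vHPC library set, and none of these calls passed with the library set in the model, as given below. Htr7 ranged from 4.199 to 4.45 with a median of 4.302 in D2 controls and did not overlap the B6 range of 3.83 to 4.14. The difference was 0.30 ± 0.07 (SE, limma, adjusted p = 0.00103), in the same direction as in the mPFC. In the BNST it was 0.41 ± 0.33 (SE, edgeR, adjusted p = 0.604). Htr3a, the channel subunit carried by a class of cortical and hippocampal interneurons, ranged from 3.881 to 4.188 in B6 and from 4.182 to 4.544 in D2 controls, which overlapped at the margin, and was higher by 0.31 ± 0.08 (SE, adjusted p = 0.00297).

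The members lower in D2 controls were Htr2c, Htr1f and Htr4. Htr1f ranged from 1.933 to 2.175 with a median of 2.056 in D2 controls, below the whole B6 range of 2.33 to 2.71, with a difference of -0.53 ± 0.09 (SE, adjusted p = 1.969e-05). Htr2c ranged from 5.68 to 6.16 with a median of 5.72 in D2 controls and overlapped the B6 controls in 1 mouse, with a difference of -0.55 ± 0.11 (SE, adjusted p = 0.000139). Htr4 ranged from 5.05 to 5.25 in D2 and from 5.14 to 5.47 in B6 controls, an overlap, and differed by -0.17 ± 0.06 (SE, adjusted p = 0.0206). Controls of the B6 strain enter both this comparison and that with susceptible B6 mice, so that their values bear on both. In that order, the differences of Htr7 were 0.30 and 0.26, of Htr1f -0.53 and -0.33, and of Htr2c -0.55 and -0.41.

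The design of the vHPC library sets limits these calls. Of 10 sets, 0 paired B6 controls with defeated B6 mice and 0 paired controls of the strains, so for B6 mice set and group cannot be told apart by comparison within a set. With the library set in the model, where the contrasts can be estimated through the other groups alone, the members called went from 5 to 0 in susceptible against control B6 mice, from 2 to 0 in susceptible against resilient mice and from 5 to 0 between strains. All of the called members kept their direction, with Htr1a at 0.25 (adjusted p = 0.627), Htr7 at 0.66 (adjusted p = 0.284), Htr5a at 0.28, Htr2c at -0.29 and Htr1f at -0.27 for susceptible against control mice. The single set that held both susceptible and resilient B6 mice gave a difference of 0.34 for Htr1a and 0.20 for Htr5a. Between strains Htr7 was at 0.73 (adjusted p = 0.0883), Htr3a at 0.15 (adjusted p = 0.843), Htr1f at -0.46, Htr2c at -0.43 and Htr4 at -0.22. With only the compared groups in the fit, Htr5a was lost for susceptible against control mice (adjusted p = 0.0787) and Htr1a for susceptible against resilient mice (adjusted p = 0.0636). Of the 9 fits that left out 1 control or susceptible B6 mouse, 9 called Htr1a, 8 Htr2c, 7 Htr1f, 7 Htr7 and 5 Htr5a. Without susceptible replicate 3, 1 of the 5 was still called, with Htr2c at an adjusted p of 0.0749, Htr5a at 0.0920 and Htr7 at 0.107, and without susceptible replicate 1, 3 were still called. Htr1f was lost without susceptible replicate 2 (-0.21, adjusted p = 0.196) and Htr5a without control replicate 2 or 5 (adjusted p = 0.0507 and 0.0508). Against resilient mice, Htr5a was lost without susceptible replicate 1 or 3 (adjusted p = 0.0520 and 0.0557). Between strains, Htr4 was lost without B6 control replicate 2 or 4 (adjusted p = 0.0535 and 0.0639), while the other 4 called members were called in all 12 fits.

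Marker lists of several cell types moved with the same groups. Choroid plexus markers, epithelial genes such as Ttr and Kl, summed to between 186.8 and 3351 CPM in B6 controls, between 159.8 and 2061 CPM in resilient and between 117.5 and 228.4 CPM in susceptible B6 mice, and between 92.53 and 966 CPM in D2 controls. Of these 12 markers 6 were lower in susceptible than in control B6 mice and 11 were lower in D2 than in B6 controls. Beside them 20.1% and 29.1% of all genes were lower. After the mean of each group was removed, Htr2c was correlated with the mean of the 12 choroid plexus markers over 28 vHPC mice, with Pearson r = 0.772 and Spearman rho = 0.762 (permutation p = 2e-05 for both, adjusted over 3 regions p = 6e-05), with r = 0.688 without the 2 mice farthest from the median and r between 0.584 and 0.871 within sequencing sets. The 5 susceptible D2 mice went the other way. The mouse with the highest marker mean, at 1.32 from its group mean, had Htr2c at -0.11. The mouse with the lowest, at -1.69, had Htr2c at 0.0945. In the mPFC r was 0.152 (rho = 0.120, permutation p = 0.408) and in the BNST -0.262 (rho = -0.344, permutation p = 0.173), each with 7 markers, and without the 2 farthest mice they were -0.0172 and -0.283. With Ttr alone in place of the list, r in the mPFC turned to -0.295 (rho = -0.282, permutation adjusted p = 0.101) and in the BNST was -0.596 (rho = -0.669, permutation adjusted p = 0.0013), against 0.689 in the vHPC. Other members also moved with this list in the vHPC, Htr4 with r = -0.777 and Htr3a with r = -0.503. The remaining members lay between -0.461 (Htr2a) and 0.299 (Htr1a). Htr2c in turn had r = 0.666 with thalamic, 0.547 with septal and preoptic and 0.482 with cortical layer markers there. With the rest of the lists it had r between -0.179 and 0.463. The part of choroid plexus tissue in the Htr2c differences was not tested.

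Cortical layer markers summed to between 372.6 and 414.4 CPM in B6 controls and between 345.6 and 473.2 CPM in resilient mice, but to between 478.8 and 508.2 CPM in susceptible B6 mice and between 447.4 and 486.8 CPM in D2 controls. Of the 11 tested, 7 were higher in susceptible than in control B6 mice, 7 were higher in susceptible than in resilient mice, and 6 were higher and 1 lower in D2 than in B6 controls. Over all genes 20.5%, 14.1% and 30.2% were higher in these comparisons, and 29.1% were lower in D2 controls. Of the hippocampal subfield markers 1 of 12 was higher and 4 lower in susceptible than in control B6 mice, 41.7% beside 40.6% of all genes. Their sums overlapped, from 943.6 to 1090 CPM in control and from 974.7 to 1043 CPM in susceptible mice. In D2 controls 3 were higher and 6 lower, beside 59.3% of all genes that passed, with sums from 954.5 to 1016 CPM. Of the caudal interneuron markers, genes of the cells that carry Htr3a, 7 of 12 were higher and 1 lower in D2 controls, with sums from 1016 to 1167 CPM in B6 and from 1180 to 1287 CPM in D2 controls. Here too 59.3% of all genes passed, 30.2% higher and 29.1% lower. Between mice of the same group Htr3a had r = -0.0271 with that list (rho = 0.029, permutation adjusted p = 0.933, r = 0.187 without the 2 farthest mice). It had r = -0.807 with cortical layer markers (rho = -0.790, permutation adjusted p = 0.000216, r = -0.747 without the 2 farthest mice). All 8 oligodendrocyte markers were lower both in susceptible B6 mice, with sums from 1953 to 2230 CPM, and in D2 controls, with sums from 1319 to 2057 CPM, than in B6 controls, with sums from 3300 to 3716 CPM. Endothelial markers (355.3 to 403.1 CPM in control, 286.1 to 313.1 in susceptible B6 mice and 252.9 to 271.4 in D2 controls) and microglia markers (309.3 to 322.8, 265 to 278.3 and 236.4 to 258.3 CPM) were likewise separate. So were the 4 tested serotonin neuron markers, a list that includes Ddc, at 28.39 to 31.73, 20.67 to 22.63 and 17.94 to 19.27 CPM. The part of these markers in the receptor differences was not tested.

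**Figure D4:**
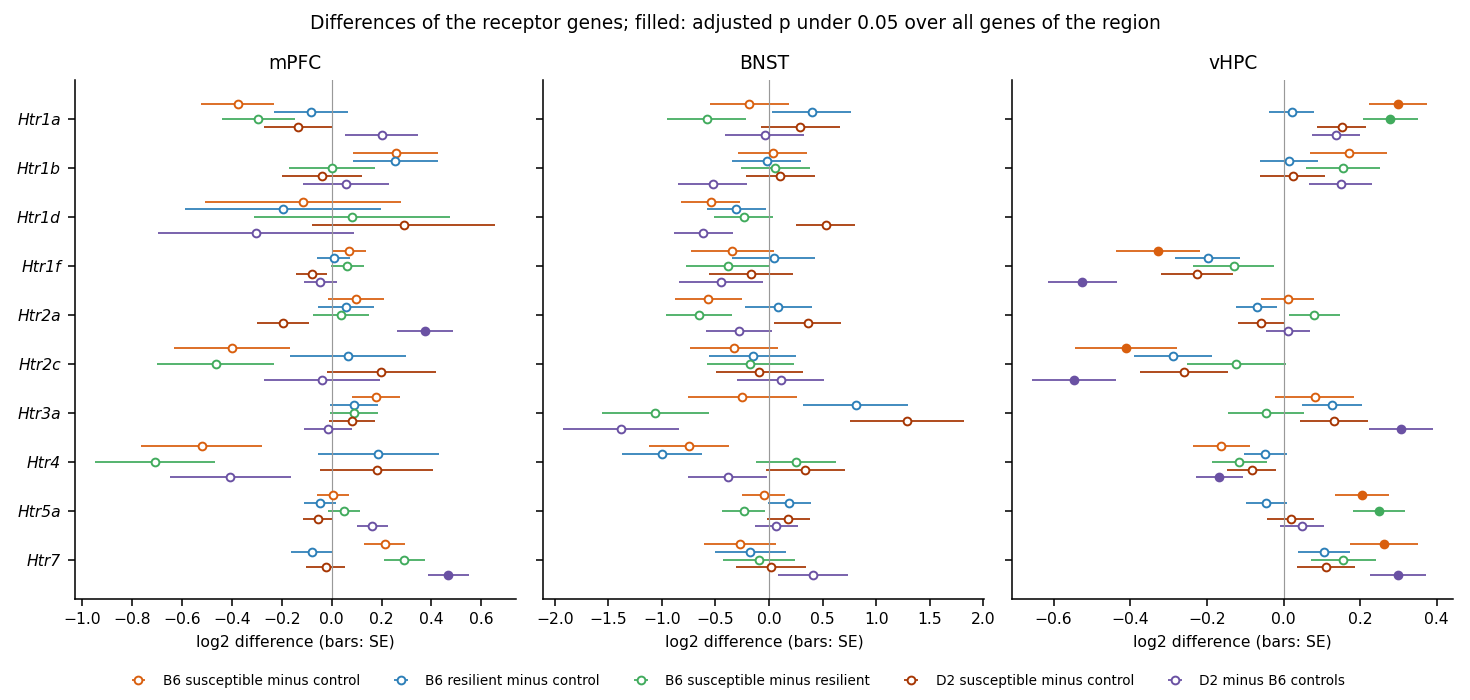
Differences of each receptor gene (x axes, log2 difference, bars give the SE) in the mPFC, BNST and vHPC for susceptible and resilient B6 mice and susceptible D2 mice against controls, susceptible against resilient B6 mice and D2 against B6 controls, filled where the adjusted p was under 0.05. The mPFC panel has 2 filled points, both D2 minus B6, the BNST panel 0 and the vHPC panel 12, and the x axes differ in range between panels.

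In the BNST 0 members passed in any of the 7 comparisons with edgeR, and 0 with DESeq2. The shares of all genes that passed were 2.51% for D2 against B6 controls, 0.00571% for susceptible against resilient B6 mice, and 0% for the other 5. At an unadjusted p under 0.05 there were 0 members for susceptible against control B6 mice, 1 for resilient against control, 2 for susceptible against resilient, 1 for susceptible against control D2 mice, 2 for the strains, 4 for the interaction and 0 for resilient against control D2 mice. In the same order the counts over all 17515 genes were 1115, 328, 1323, 1056, 2339, 2004 and 953. Without D2 control replicates 2 and 5 there were again 0 members called in each comparison. The SE of the strain difference was 0.20 to 0.54 over the members, so differences of the size found in the vHPC were not detectable here.

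For the leading BNST receptors the groups overlapped. Htr1b was 6.52, 6.43, 6.59, 7.32 and 5.68 log2 CPM in the B6 controls, and 6.69, 6.11, 6.22, 6.18 and 4.24 in the D2 controls, the last value being that of the library with the high thalamic marker sum. The B6 susceptible mice had 6.338, 6.889, 7.163, 6.147 and 6.385, all within the control range. The difference of their mean from controls was 0.03 ± 0.32 (SE, edgeR, adjusted p = 0.999). Htr2c was 7.07, 6.97, 5.97, 6.14 and 5.97 in B6 controls and 6.68, 8.05, 5.61, 5.44 and 4.96 in D2 controls, a wider spread, with a difference of 0.11 ± 0.41 (SE, edgeR, adjusted p = 0.932) and of -0.49 without D2 control replicates 2 and 5 (adjusted p = 0.710).

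Htr1d, Htr2a, Htr3a and Htr4 had estimates at an unadjusted p under 0.05 without passing the test. Between susceptible and resilient B6 mice these were Htr2a at -0.65 and Htr3a at -1.06 (edgeR, adjusted p = 0.651 and 0.645). For susceptible against control D2 mice it was Htr3a at 1.29 (edgeR, adjusted p = 0.699). Htr1d, the second terminal autoreceptor, was 4.699, 4.991, 4.438, 5.134 and 4.497 in control and 3.97, 4.41, 4.67, 4.06 and 3.90 in susceptible B6 mice. In D2 it was 4.83, 3.13, 4.04, 4.71 and 3.28 in control and 4.79, 4.52, 4.79, 4.93 and 4.35 in susceptible mice. Susceptible mice lay mostly lower in B6 and mostly higher in D2, with ranges that overlapped in both, and the interaction was 1.07 ± 0.39 (SE, edgeR, adjusted p = 0.244). Without D2 control replicates 2 and 5, which had the lowest Htr1d of that group, it was 0.67 (edgeR, adjusted p = 0.287). Htr3a, with values near the detection limit, was 0.76, 0.21, -0.02, -0.49 and -0.40 in B6 controls, -0.07, -1.77, -1.92, -1.58 and -1.75 in D2 controls and 0.22, 0.52, 0.19, -0.16 and -1.55 in susceptible D2 mice. The control strains overlapped only through D2 control replicate 1, with a difference of -1.38 ± 0.54 (SE, edgeR, adjusted p = 0.243), the opposite direction to that in the vHPC, and the difference between the regions was not tested.

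Htr4 in the BNST was 4.13, 4.34, 3.25, 2.54 and 3.41 in control, 3.01, 2.62, 1.85, 3.41 and 1.81 in resilient and 2.88, 3.45, 1.72, 2.73 and 3.34 in susceptible B6 mice. Defeated and control mice overlapped, and the difference of resilient from control mice was -0.996 ± 0.37 (SE, edgeR, adjusted p = 0.9999). The interaction estimate was positive for all 10 members, with a median of 0.38 against -0.04 over all genes, but without D2 control replicates 2 and 5 that of Htr1b was -0.23. In the fit with all libraries Htr4 (1.08), Htr3a (1.54) and Htr2a (0.93) had adjusted p values of 0.430, 0.428 and 0.421 (edgeR). Members share libraries and are not separate observations of the strains.

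Receptor levels also moved with marker lists between mice of the same group. Relations between each member and 12 marker lists were computed within regions after removal of group means, with 120 for mPFC, 120 for BNST and 108 for vHPC, of which 31, 31 and 22 had an adjusted permutation p under 0.05. They were added after values had been seen. How often other genes pass against these lists was not computed, so nothing particular to the receptors is read from these counts or from the relations below. In the BNST, Htr1b was higher in mice with more RNA of the 10 striatal neuron markers, genes of medium spiny neurons such as Drd1 and Penk (r = 0.872, rho = 0.866, permutation adjusted p = 0.000133, n = 28, r = 0.785 without the 2 farthest mice, and 0.846 to 0.853 within library sets). Htr1d did so with r = 0.816 and rho = 0.847 (permutation adjusted p = 0.000133, r = 0.764 without the 2 farthest mice, and 0.725 to 0.816 within library sets). Htr1f was lower in mice with more RNA of the 8 oligodendrocyte markers, r = -0.831 and rho = -0.892 (permutation adjusted p = 0.000133, r = -0.829 without the 2 farthest mice, and -0.857 to -0.803 within library sets). Htr1f was related as closely to the 8 astrocyte markers, r = -0.833 and rho = -0.848 (r = -0.785 without the 2 farthest mice). With the 10 thalamic markers it had r = -0.755 and rho = -0.733 (r = -0.687 without the 2 farthest mice). Both r had a permutation adjusted p of 0.000133. The raw p behind these 5 relations, 1e-05, is the smallest that 100000 permutations can give.

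In the vHPC, Htr4 was lower in mice with more cortical layer marker RNA, r = -0.852 and rho = -0.825 over 28 mice (permutation adjusted p = 0.000216 and 0.00027), with r = -0.806 without the 2 farthest mice and -0.917 to -0.819 within sequencing sets. Htr1a went the other way, r = 0.721 and rho = 0.702 (permutation adjusted p = 0.00054 and 0.00151), with r = 0.608 without the 2 farthest mice and 0.516 to 0.838 within sequencing sets. Htr7 was lower where hippocampal subfield markers were higher, r = -0.763 and rho = -0.761 (permutation adjusted p = 0.000216 and 0.00027), with r = -0.647 without the 2 farthest mice. In the mPFC, Htr5a was higher with cortical layer markers, r = 0.619 and rho = 0.550 (permutation adjusted p = 0.00257 and 0.015), with r = 0.427 without the 2 farthest mice. Htr7 in the mPFC, the member with the strongest strain difference there, had r = 0.0181 with cortical layer markers (rho = 0.0773, permutation adjusted p = 0.947, r = 0.147 without the 2 farthest mice) and r = -0.257 with oligodendrocyte markers (rho = -0.242, permutation adjusted p = 0.281, r = -0.173 without the 2 farthest mice).

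**Figure D5:**
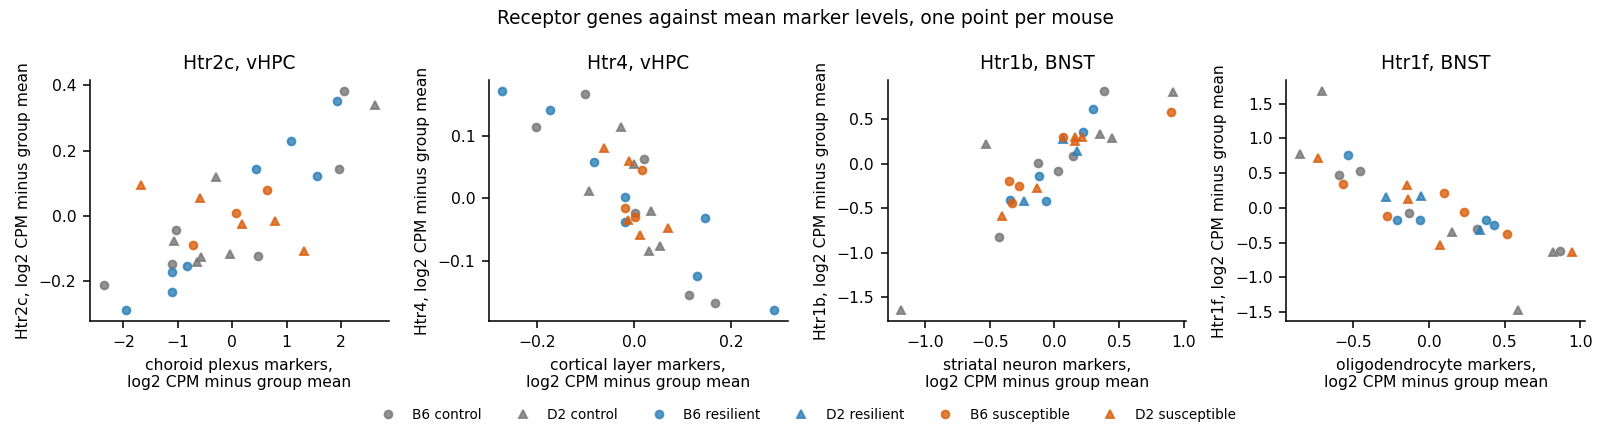
Receptor level against the mean of a marker list (both axes log2 CPM minus the mean of the mouse's group), with 1 point per mouse, for Htr2c and choroid plexus markers (r = 0.772) and Htr4 and cortical layer markers (r = -0.852) in the vHPC, and Htr1b and striatal markers (r = 0.872) and Htr1f and oligodendrocyte markers (r = -0.831) in the BNST. Colours give the phenotype and symbols the strain.

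The genes most like a receptor were taken as the 3 with the highest Pearson r over the mice of the region where that receptor was highest, after removal of group means. In the BNST these were Sowaha (0.938), Akap5 (0.931) and Sertad4 (0.930) for Htr1b, Scube3 (0.892), Sh3pxd2a (0.880) and Tbc1d8 (0.876) for Htr1d, and Zc3h6 (0.950), Hs6st2 (0.949) and Gm43880 (0.948) for Htr2c, over 28 mice. In the vHPC they were Homer2 (0.852), 2810455O05Rik (0.848) and H2afy (0.848) for Htr1a, Dhx40 (0.880), Ndufb6 (0.874) and Hagh (0.871) for Htr3a, Fam173a (0.906), Entpd6 (0.900) and Dolk (0.898) for Htr4, and Fbxl2 (0.829), Zswim7 (0.821) and Gm43410 (0.799) for Htr7, over 28 mice. In the mPFC they were Kcnj3 (0.775), Sp4 (0.736) and Zmym2 (0.736) for Htr1f, Camkk2 (0.855), Extl3 (0.848) and Sema7a (0.827) for Htr2a, and Gm9954 (0.917), Nlk (0.911) and Ttll11 (0.903) for Htr5a, over 32 mice. These mice share library kits and dissections, and the values describe likeness only.

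Of 60 further genes of the serotonin system (other receptors, synthesis, transport and breakdown, G proteins, effectors, partners and regulators), the tests covered 52 for mPFC, 53 for BNST and 55 for vHPC. In the mPFC 1 was higher in susceptible than in control B6 mice, Fkbp5, a glucocorticoid-induced co-chaperone (0.38, adjusted p = 0.0490), and 1 was lower in susceptible than in resilient mice, Maoa, the main serotonin-degrading enzyme (-0.18, adjusted p = 0.0487). Each was 1 of 52 tested, beside 2.22% and 2.02% of all genes, so these counts are near the background. Between strains 5 were higher and 9 lower in D2 controls of the mPFC, 26.9% of those tested beside 27.8% of all genes, among them the receptor Htr6 (0.75, adjusted p = 0.0289), Fkbp5 (0.41, adjusted p = 0.00411) and Ddc, the decarboxylase that makes serotonin and dopamine (-0.63, adjusted p = 0.000673). In the BNST 0 of 53 passed in any comparison (edgeR). In the vHPC 10 were higher and 12 lower in susceptible than in control B6 mice, 22 of 55 and so near the 40.6% of all genes. Between strains 11 were higher and 20 lower in D2 than in B6 controls, 56.4% beside 59.3%.

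Ddc had the largest difference of those called in the vHPC for susceptible against control mice in both strains and between strains, among the listed genes. It had means of 3.41 ± 0.09 log2 CPM (SD, n = 6) in control, 3.01 ± 0.19 (SD, n = 8) in resilient and 2.46 ± 0.17 (SD, n = 3) in susceptible B6 mice, and 1.97 ± 0.11 (SD, n = 6) in control and 1.52 ± 0.10 (SD, n = 5) in susceptible D2 mice. Susceptible mice were lower than controls by 0.95 on the log2 scale in B6 (adjusted p = 8.258e-08) and by 0.45 in D2 (adjusted p = 0.00156), and D2 controls were lower than B6 controls by 1.44 (adjusted p = 4.344e-14). Htr5b, a rodent receptor gene related to Htr5a, was lower in susceptible than in control B6 mice, where Htr5a was higher, with medians of 3.17 in control, 2.95 in resilient and 2.668 in susceptible B6 mice and 2.095 in D2 controls, and differences of -0.58 (adjusted p = 0.00409) for susceptible against control B6 mice and -1.15 (adjusted p = 1.615e-08) between strains, where Htr5a did not pass (0.05, adjusted p = 0.484). Gnao1, the alpha subunit of Go, was higher by 0.55 in susceptible than in control B6 mice (adjusted p = 0.00805) and by 0.61 than in resilient mice (adjusted p = 0.00841). Gna14, a Gq family subunit, was higher by 0.40 in susceptible than in control D2 mice (adjusted p = 0.0346) and by 1.32 in D2 than in B6 controls (adjusted p = 6.936e-11). Resilient B6 mice also differed from controls, in Gna14 (0.46, limma, adjusted p = 0.00253), Ddc (-0.39, adjusted p = 0.000715) and Htr5b (-0.39, adjusted p = 0.0320). Susceptible B6 mice were lower than resilient mice in Ddc (-0.55, adjusted p = 0.000986) and Spr (-0.35, adjusted p = 0.0269). Adcy2 was lower in susceptible than in control D2 mice (-0.11, adjusted p = 0.0349). The interaction passed for 0 of 55 (limma). The limit of the vHPC library sets holds for these genes as for the members. Of 10 sets, 0 paired B6 controls with defeated B6 mice and 0 paired controls of the strains. Differences of these genes with the library set in the model are not given here.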

How the data were processed

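RNA-seq libraries came from 3 brain regions of defeated and control mice. Mapping by the authors used STAR and GRCm38, with HTSeq for the counting per gene. Adapter sequence (Cutadapt, FastX) and duplicate reads (PRINSEQ) had been taken out first. The deposited BNST table holds whole read counts, while for the mPFC and vHPC the authors deposited log2 CPM values, made with a low-count filter, voom and a ComBat batch adjustment. The paired-end vHPC libraries were prepared with Nextera, the mPFC ones with ScriptSeq and the BNST ones with Ovation kits. Groups came from the labels, and library sets from the study's sample table.

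BNST genes reaching 1 CPM in 6 libraries or more (17515) were scaled with TMM and tested with edgeR 4.0.16 (quasi-likelihood, robust), with a prior count of 0.5 for log2 CPM. The mPFC and vHPC values (18946 and 19559 genes) were tested with limma 3.58.1 (robust empirical Bayes) in R 4.3.3. All libraries of a region shared 1 fit with a mean per group. P values were two-sided, adjusted by Benjamini-Hochberg over all genes of the region. Relations across mice used values with the group mean removed and 100000 permutations over all mice of a region, not restricted to groups. The tests were tried on simulated data. Named were all members, the called genes of the serotonin system lists with the 3 largest changes per comparison, and the 3 genes most like each member. The members, lists and tests were chosen with earlier results of these data known. Alternatives were DESeq2 1.42.0, its size factors, other filters, a trend or no robust option, quantile normalization, batch terms, the compared groups alone and each mouse left out. Leaving out both BNST D2 control replicates 2 and 5 was added after the data had been seen. Labels do not name litters or cages, so p values measure the spread between mice.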

Additional observations from a re-analysis of the deposited data

Results flagged for a closer look

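Among 136 groups of 4 to 10 mice tested, 10 single values lay far from the rest of their group, where chance alone gives about 1 in 20. In the mPFC, B6 susceptible replicate 4 was the lowest of 6 mice for both Htr1b (3.34 log2 CPM, nearest 4.25) and Htr2c (3.47, nearest 4.25), and D2 susceptible replicate 7 was the highest of 8 for Htr4 (3.149, nearest 1.988). In the BNST, B6 resilient replicate 5 was the lowest of 5 for Htr1d (3.33, nearest 4.48) and Htr2c (5.49, nearest 6.48), and B6 resilient replicate 3 was the highest for Htr1f (3.98, nearest 3.05). D2 control replicate 5 of the BNST was the lowest for Htr1b (4.24, nearest 6.11), and D2 control replicate 1 was the highest for Htr3a (-0.0739, nearest -1.58). D2 susceptible replicate 4 was the highest for Htr4 (3.96, nearest 3.58), and B6 susceptible replicate 3 was the lowest for Htr5a (2.53, nearest 3.35).

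With all libraries, for 2 genes of the BNST every susceptible mouse lay on opposite sides of its strain's control mean, lower in B6 and higher in D2. These were Htr1d, with an interaction of 1.07 (edgeR, adjusted p = 0.2442), and Htr4, with 1.08 (edgeR, adjusted p = 0.4302), so the differences between the strains did not pass the test. For Htr1d the D2 side rests on the 2 D2 controls that stood apart. Without them, not every susceptible D2 mouse lay above the control mean. Susceptible minus control D2 mice was then 0.12 for Htr1d (edgeR, adjusted p = 0.860) and 0.56 for Htr4 (edgeR, adjusted p = 0.547). The interactions were then 0.67 (edgeR, adjusted p = 0.287) and 1.31 (edgeR, adjusted p = 0.166).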

How the results depend on the processing

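With the library set in the model the members called in the vHPC went to 0 for susceptible against control B6 mice (5 otherwise), to 0 for susceptible against resilient mice (2 otherwise) and to 0 between strains (5 otherwise), where set and group are largely shared. With only the compared groups in the fit, 1 member was called for susceptible against resilient mice in the vHPC (Htr5a) and 1 between strains in the mPFC (Htr7), with 2 otherwise in each. An intensity trend, or keeping genes with a mean log2 CPM of at least 1, gave 1 member for susceptible against resilient mice in the mPFC (0 otherwise). With Ttr alone in place of the choroid plexus list, r with Htr2c in the BNST was -0.596 (permutation adjusted p = 0.0013), against -0.262 with the list, -0.295 in the mPFC against 0.152, and 0.689 in the vHPC. The causes of these changes were not tested. Leaving out 1 mouse at a time gave 0 to 1 members for susceptible against resilient mice and 2 to 3 between strains in the mPFC, and 1 to 6, 0 to 1, 1 to 2 and 4 to 6 members in the vHPC for susceptible against control, resilient against control, susceptible against resilient and D2 against B6 mice, with 0 in all other comparisons. No direction of a called member turned, while 183 of 3375 estimates of members not called had the opposite sign. The mouse ID prefix could not be used between strains, since prefixes do not cross strains. No paired analysis was possible because the replicate numbers follow accession order only and no mouse is in more than 1 group of a region. Htr3a in the BNST rests on 3 to 41 reads per library, while the reads behind Htr1d in the mPFC, with levels near 1 CPM, are not known.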

Other observations

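Receptor genes outside the 10 members were also present. Htr6, a Gs-coupled receptor of striatal neurons, had a mean of 3.66 ± 0.60 log2 CPM (SD, n = 5) in BNST B6 controls and was at -0.49 in D2 control replicate 2. Htr2b was at 2.12 ± 0.16 log2 CPM (SD, n = 6) in vHPC B6 controls and at 2.33 ± 0.12 (SD, n = 6) in D2 controls, a difference of 0.21 (limma, adjusted p = 0.00768). No vHPC library set held controls of both strains, so set and strain cannot be told apart within a set. Htr2b and Htr3b were below the expression filter in the BNST.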
